A study of Homo sapiens with 6 samples.

Results

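Wnt proteins are secreted, lipid-modified signals, and the genes described here encode these ligands, their receptors, their antagonists and the core of the pathway they act through. The genes were chosen by name from the protein-coding genes of the deposited table: every WNT, FZD, DKK and SFRP gene, the LGR receptors, and RNF43, ZNRF3, AXIN1, AXIN2, TCF7, TCF7L1, TCF7L2, LEF1, LRP5, LRP6, CTNNB1 and APC. The table held 42 of them among 21776 genes, which were 17 ligands, 9 Frizzled receptors, both LRP co-receptors, 2 Dickkopf antagonists, 1 SFRP antagonist, 2 LGR receptors, 2 receptor-degrading ligases, 2 scaffolds of the destruction complex, beta-catenin and 4 TCF/LEF factors. AXIN2, LGR5, FZD10, DKK2, DKK4, SFRP2, SFRP4, SFRP5, WNT8A and WNT9B were not analysed here.

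RNA sequencing was performed on SCC25, an established cell line from an oral squamous cell carcinoma that is labelled wild type, after 12 h under hypoxia or normoxia. Cells of the 3 hypoxia libraries were held in a tri-gas incubator at 1% O2 and 5% CO2 with nitrogen as the balance, and those of the 3 normoxia libraries in air with 5% CO2. Both groups grew in DMEM/F12 with 10% FBS, and no other treatment is labelled. A single line limits what these groups can stand for, and the labels do not say that replicates were separate cultures, so that p-values measure only the spread between these libraries. The total counts were 37278703, 29637189 and 29981208 in normoxia replicates 1 to 3 and 30186813, 36076088 and 32272716 in hypoxia replicates 1 to 3.

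In the canonical branch of the pathway, a Wnt ligand joins a Frizzled receptor to LRP5 or LRP6, and this halts the destruction complex, in which APC and AXIN1 hold beta-catenin for degradation. Spared beta-catenin enters the nucleus and acts on genes through the TCF/LEF factors. Dickkopf proteins and secreted Frizzled-related proteins work outside the cell against the ligands or co-receptors, whereas RNF43 and ZNRF3 remove Frizzled from the surface unless an R-spondin engages them through an LGR receptor. In squamous epithelium the pathway is known for its role in basal cell renewal and appendage formation.

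The labels were checked first. All 8 genes taken as a check of the hypoxia label rose, with a median log2-fold change of 2.75. CA9, a carbonic anhydrase induced by low oxygen, rose by 2.71 on the log2 scale (adjusted p = 2.03e-09, edgeR), and VEGFA, an angiogenic growth factor, rose by 2.80 (adjusted p = 4.25e-15, edgeR). The log2-fold changes of the other 6 were 6.69 for EGLN3, 3.79 for ANKRD37, 3.04 for ADM, 1.80 for PDK1, 1.74 for BNIP3 and 1.49 for SLC2A1. Among the normoxia libraries, replicate 3 stood apart in some of these genes, at 67.7 CPM for CA9 (CPM are counts per 1000000 of the TMM-adjusted library total) against 32.2 and 27.3 in replicates 1 and 2, and at 10.7 CPM for EGLN3 against 5.86 and 3.74. It lay far below the hypoxia libraries, which held 262 to 293 CPM for CA9. Without it, 11 Wnt genes were called higher and 12 lower by edgeR in place of 9 and 12, FZD7 and WNT5A being the 2 gained. Of 7 squamous and epithelial markers, KRT5 was present at 3494 to 4424 counts per library, and TP63, CDH1, DSG3, SFN and EPCAM were present as well. Of the 6 tested, CDH1 (log2-fold change 1.35) and DSG3 (1.35) were higher, SFN (−0.80), EPCAM (−0.35) and KRT5 (−0.18) were lower, and TP63 was not called by edgeR. KRT14, a keratin of basal squamous cells, had 1 count in normoxia replicate 2 and 0 in the other 5 libraries, so that this defining marker was absent.

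Markers of cells that the culture should lack were low, and several moved with the condition. The summed CPM of 6 fibroblast markers were 4.03, 3.15 and 5.64 in normoxia and 22.1, 18.7 and 17.1 in hypoxia. Most of this was COL1A1, with a log2-fold change of 2.26 (adjusted p = 1.02e-09, edgeR), while DCN reached at most 4 counts and COL3A1 was at 0 in normoxia. PDGFRB, with a log2-fold change of 0.96, was tested and not called (adjusted p = 0.0507, edgeR), and COL1A2 and LUM did not pass the filter on low counts. LUM had 1, 1 and 2 counts in normoxia and 27, 9 and 8 in hypoxia, and COL1A2 had 3, 0 and 5 against 9, 0 and 8. The summed CPM of 3 endothelial markers were 0.296, 0.315 and 0.744 in normoxia and 1.54, 1.24 and 1.48 in hypoxia, most of it from CDH5, the only one tested, with a log2-fold change of 1.14 (adjusted p = 0.0251, edgeR). CDH5 passed the filter only through its hypoxia libraries, so its call is a description only. PECAM1 and VWF stayed at or below 10 counts, and VWF was at 0 in normoxia. The summed CPM of 4 leukocyte markers were 1.40, 0.664 and 1.25 in normoxia and 6.29, 6.80 and 6.53 in hypoxia. This was CSF1R almost alone, with a log2-fold change of 2.49 (adjusted p = 1.91e-08, edgeR), while the pan-leukocyte gene PTPRC was at 0 in 5 libraries and at 2 counts in the other, CD3E did not exceed 1 count and ITGAX reached 14. CLDN5 was not analysed here. The part of these markers in the values below was not tested.

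Promoter windows of 250 bases before the transcription start were taken from RefSeq (GRCh38.p14) for 31 of the 42 genes, 41 windows in all. The windows of 4 genes are printed, since these genes had some of the largest changes of their roles: the antagonist DKK1, the TCF factor TCF7L1 and the ligands WNT4 and WNT10A. Capitals mark 4 short motifs searched on both strands, ACGTG and GCGTG (the core of a hypoxia response element) and CTTTGA and CTTTGT (the core of a TCF/LEF site), and a palindromic CACGTG counts on each strand. The windows lie at chr10:52314031-52314280 on the plus strand for DKK1, chr2:85133142-85133391 on the plus strand for TCF7L1, chr1:22143098-22143347 on the minus strand for WNT4 and chr2:218880602-218880851 on the plus strand for WNT10A, each written 5′ to 3′.
DKK1: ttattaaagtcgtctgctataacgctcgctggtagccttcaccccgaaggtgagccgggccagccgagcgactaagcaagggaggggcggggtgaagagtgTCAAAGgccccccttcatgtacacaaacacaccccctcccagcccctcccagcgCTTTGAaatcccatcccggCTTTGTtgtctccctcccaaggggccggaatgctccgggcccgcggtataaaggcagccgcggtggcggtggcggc
TCF7L1: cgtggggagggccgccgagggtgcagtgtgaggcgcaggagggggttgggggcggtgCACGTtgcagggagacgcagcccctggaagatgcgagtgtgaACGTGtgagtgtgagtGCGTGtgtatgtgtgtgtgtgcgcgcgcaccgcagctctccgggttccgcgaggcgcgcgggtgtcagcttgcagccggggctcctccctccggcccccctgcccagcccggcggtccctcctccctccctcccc
WNT4: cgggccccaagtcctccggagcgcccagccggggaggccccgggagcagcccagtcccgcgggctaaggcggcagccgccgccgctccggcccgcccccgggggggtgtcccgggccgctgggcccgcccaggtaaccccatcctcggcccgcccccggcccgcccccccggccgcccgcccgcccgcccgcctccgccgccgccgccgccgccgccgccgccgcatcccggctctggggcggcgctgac
WNT10A: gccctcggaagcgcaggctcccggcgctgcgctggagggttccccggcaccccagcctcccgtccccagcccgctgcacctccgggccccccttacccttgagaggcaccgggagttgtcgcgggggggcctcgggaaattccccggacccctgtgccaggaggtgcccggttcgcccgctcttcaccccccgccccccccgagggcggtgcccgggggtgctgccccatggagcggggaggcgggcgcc

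The DKK1 window held 2 CTTTGA and 1 CTTTGT and neither hypoxia core. At least 3 TCF/LEF cores, a number taken from this window after all 41 had been searched, were found in 205 of 35116 windows of all genes (0.584%), which is a description only. The TCF7L1 window held 2 ACGTG and 1 GCGTG and no TCF/LEF core, and the WNT4 and WNT10A windows held none of the 4 motifs. Across the 41 windows of Wnt genes, 16 (39.0%) held a hypoxia core, against 43.2% of all windows, and 7 (17.1%) held a TCF/LEF core, against 22.8%. A match is a run of letters and not a shown binding site, and the bases just after the start lay in a GENCODE v29 transcript of the gene for 28 of the 41 windows, WNT4 being one of the others.

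The question was which Wnt genes differed between hypoxia and normoxia. In edgeR, 14255 genes had enough counts to be compared, and a gene was called at an adjusted p under 0.05. Of the 42 Wnt genes, 30 passed the filter, and 21 of these were called, 9 higher and 12 lower. The background was high, since 77.8% of all genes tested were called, 39.2% higher and 38.5% lower, beside 70% of the Wnt genes, 30% higher and 40% lower. The 30 genes had a median log2-fold change of −0.0080, against 0.023 over all genes tested. With a log2-fold change of at least 1 in size, 6 Wnt genes were higher and 2 lower, where the same threshold held 19.9% of all genes tested as higher and 10.5% as lower. Among the 9 and the 6 higher genes, WNT2B and TCF7L1 passed the filter only through their hypoxia libraries, so their calls are descriptions only. Where groups are said below not to overlap in CPM, this is a description only, since that share over all genes tested is not given here. The plot of CPM by library shows the 30 genes in their order of role.

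**Figure D1:**
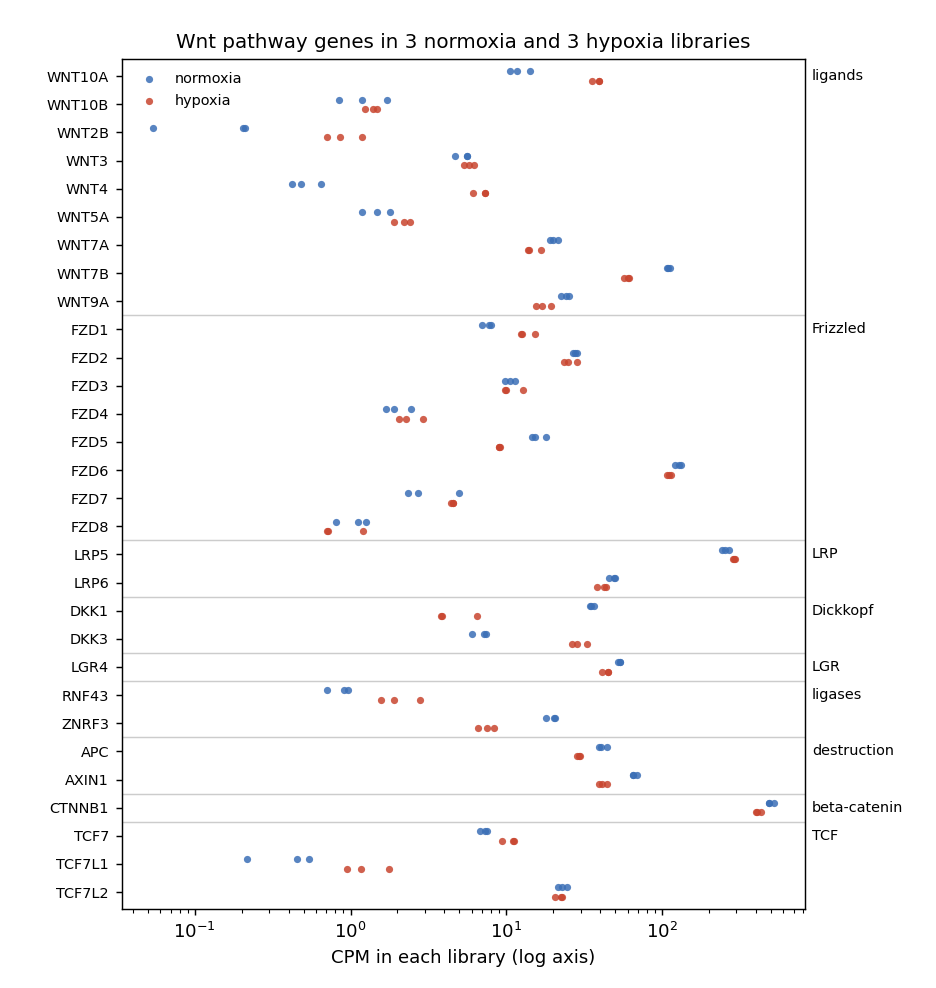
CPM of the 30 tested Wnt pathway genes (log axis) in each of 3 normoxia libraries (blue) and 3 hypoxia libraries (red), grouped by role, 1 point per library. WNT4 and DKK3 lie apart to the right under hypoxia and DKK1 and ZNRF3 to the left, while the points of FZD3 and TCF7L2 overlap.

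Among the ligands, WNT10A and WNT4 rose and WNT7B, the most abundant one under normoxia, fell. In all, 9 ligands were tested, of which 3 rose and 3 fell, which is 66.7% called beside 77.8% of all genes. WNT10A, a ligand of skin and tooth development, had 394, 336 and 422 counts in normoxia and 1196, 1327 and 1280 in hypoxia. Its level rose from 12.2 ± 1.88 to 38.1 ± 2.10 CPM (SD, n = 3 each), with a log2-fold change of 1.65 (SE 0.099, adjusted p = 8.00e-11, edgeR). The groups did not overlap, and each hypoxia library lay far above every normoxia library. In a bulk culture, a change in the number of cells that express a gene and a change in RNA per cell cannot be told apart, here and for every gene that follows.

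WNT4, a ligand known from kidney and reproductive tract development, had 18, 12 and 19 counts in normoxia and 223, 271 and 197 in hypoxia. Its level went from 0.515 ± 0.115 to 6.89 ± 0.706 CPM (SD, n = 3 each), a log2-fold change of 3.73 (SE 0.23, adjusted p = 1.02e-10, edgeR), which is 13.3-fold. This was the largest log2-fold change among the 30 tested Wnt genes. WNT2B had 2, 6 and 6 counts in normoxia and 36, 32 and 23 in hypoxia, with a log2-fold change of 2.59 (SE 0.51, adjusted p = 1.84e-04, edgeR). The counts of WNT2B are few, and it passed the filter only through its hypoxia libraries, so its call is a description only. In GENCODE v29, 21.2% of its exon bases are shared with ST7L on the opposite strand, whose log2-fold change was −0.088. Whether counting used the strand is not given in the sources used here.

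WNT7B, a ligand of epithelial tissues, had 4061, 3080 and 3338 counts in normoxia and 1838, 2110 and 1974 in hypoxia, and fell from 110 to 59.3 CPM with a log2-fold change of −0.89 (SE 0.055, adjusted p = 1.06e-10, edgeR). Its close relative WNT7A had 801, 574 and 568 counts in normoxia and 513, 519 and 446 in hypoxia, a log2-fold change of −0.45 (SE 0.099, adjusted p = 4.69e-04, edgeR). WNT9A had 900, 646 and 746 against 588, 627 and 504 counts, a log2-fold change of −0.48 (SE 0.093, adjusted p = 1.56e-04, edgeR). In CPM, the 3 falling ligands had no overlap between the groups. A further 3 ligands were tested and not called by edgeR. They were WNT3 with a log2-fold change of 0.12 (95% interval −0.19 to 0.44), WNT10B with 0.14 (−0.53 to 0.80) and WNT5A, best known for beta-catenin-independent signalling, with 0.54 (−0.0095 to 1.10). WNT5A had an adjusted p of 0.0675 in edgeR, and its hypoxia libraries, at 1.91 to 2.42 CPM, all lay above its normoxia libraries, at 1.19 to 1.79 CPM.

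Levels of different genes were compared as the deposited FPKM (fragments per kilobase, relative to the library total), which are per length. The summed FPKM of the 17 ligands were 43.6, 41.6 and 45.1 in normoxia and 44.5, 41.5 and 42.7 in hypoxia, so that the groups overlapped. The means were 43.4 ± 1.76 and 42.9 ± 1.51 (SD, n = 3 each). Within nearly the same sum the make-up differed. WNT7B made up 60.0%, 60.0% and 59.3% of it in normoxia and 32.9%, 33.8% and 34.5% in hypoxia. WNT10A made up 10.8%, 12.2% and 13.9% in normoxia and 39.7%, 39.5% and 41.5% in hypoxia. Per length, the order of these ligands was thereby reversed, with a ratio of WNT10A to WNT7B in FPKM of 0.206 ± 0.0274 in normoxia and 1.19 ± 0.0222 in hypoxia (SD, n = 3 each). This order depends on the gene lengths implied by the deposited FPKM, 2242 bases for WNT10A and 4162 for WNT7B, and WNT7B still drew more counts under hypoxia. WNT7A fell from 11.2% to 8.52% of the sum and WNT9A from 11.6% to 8.72%, and in each condition this pair differed by less than the SD of WNT7A. WNT3 stood at 3.64% and 4.16%, and WNT4 at 0.184% and 2.58%. These shares are descriptions without a test of their own.

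**Figure D2:**
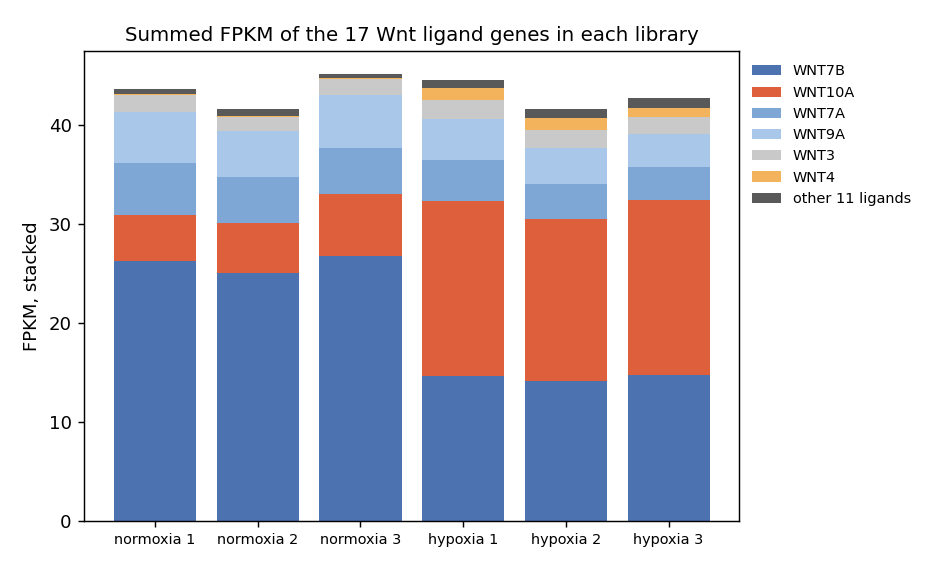
Summed FPKM of the 17 Wnt ligand genes in each of the 6 libraries (bars, axis from 0), stacked by gene. The height of the bars is nearly the same in all libraries (41.5 to 45.1 FPKM), while the WNT10A segment is larger and the WNT7B segment smaller in the 3 hypoxia libraries.

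In all, 8 ligands did not pass the filter. WNT6 had 0 counts in every normoxia library and 7, 9 and 11 in hypoxia, at least 2.82-fold higher when normoxia is set to a floor of 3 counts per library. WNT6 is the direct neighbour of WNT10A on chromosome 2 in the RefSeq gene order. WNT11 had 2, 1 and 0 counts in normoxia and 7, 5 and 20 in hypoxia, a ratio of 10.2 with a counting interval of 3.18 to 51.9 that covers counting error only. With normoxia set to the same floor, WNT11 was at least 3.4-fold higher over all hypoxia libraries. Hypoxia replicate 3 held 20 of its 32 hypoxia counts, and without it the ratio was 5.63 (1.52 to 31.1), while without normoxia replicate 1 it was 18.6 (3.11 to 757). WNT8B had 6, 15 and 3 counts in normoxia and 0, 7 and 0 in hypoxia (ratio 0.278, counting interval 0.101 to 0.665), and its groups overlapped. Without normoxia replicate 2 its ratio was 0.519 (0.164 to 1.56), and hypoxia replicate 2 held all of its hypoxia counts. WNT16 had 10, 5 and 0 counts in normoxia and 0, 3 and 1 in hypoxia (ratio 0.254, counting interval 0.0614 to 0.797), and its groups overlapped. Leaving out 1 library at a time moved this ratio between 0.101 (without hypoxia replicate 2) and 0.465 (without normoxia replicate 1, interval 0.0922 to 2.16). WNT5B had at most 5 counts in any library, and WNT1, WNT2 and WNT3A no more than 1. When edgeR was run without the filter, WNT6 (adjusted p = 2.95e-04, edgeR) and WNT11 (adjusted p = 0.00364, edgeR) were called higher, and the other 6 ligands were not called.

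Of 8 Frizzled receptors tested, none had a log2-fold change past 1 in size. FZD1 rose, FZD5 and FZD6 fell, and 5 were not called, which is 37.5% called beside 77.8% of all genes. FZD1 had 298, 199 and 230 counts in normoxia and 380, 471 and 496 in hypoxia, a log2-fold change of 0.83 (SE 0.12, adjusted p = 6.65e-06, edgeR). FZD5 had 667, 435 and 433 against 280, 335 and 292 counts, a log2-fold change of −0.82 (SE 0.11, adjusted p = 2.29e-06, edgeR). In CPM neither gene overlapped between the groups. FZD6 is the Frizzled gene with the highest FPKM here and is known for planar polarity of skin and hair. It had 4497, 3669 and 3900 counts in normoxia and 3384, 4242 and 3467 in hypoxia, a log2-fold change of −0.20 (SE 0.055, adjusted p = 0.00315, edgeR).

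The 5 Frizzled genes that were not called had log2-fold changes of −0.11 for FZD2 (95% interval −0.29 to 0.064), 0.047 for FZD3 (−0.22 to 0.31), 0.26 for FZD4 (−0.26 to 0.78), 0.44 for FZD7 (−0.046 to 0.92) and −0.24 for FZD8 (−0.999 to 0.511). FZD7 rests on normoxia replicate 3, which stood at 4.94 CPM against 2.71 and 2.34 in the other normoxia libraries. Without that library, FZD7 was called with a log2-fold change of 0.81 (adjusted p = 6.45e-04, edgeR), the lowest of its alternatives, which reached 0.327. FZD4 shares 18.9% of its exon bases with PRSS23 on the opposite strand, which went from 97.6 to 57.5 CPM. FZD9 did not pass the filter, with 10, 7 and 11 counts in normoxia and 0, 1 and 6 in hypoxia (ratio 0.238, counting interval 0.0878 to 0.558). Hypoxia replicate 3 held 6 of its 7 hypoxia counts, and without it the ratio was 0.0503. Without the filter it was called lower (adjusted p = 0.0426, edgeR).

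The summed FPKM of the 9 Frizzled genes were 44.9 ± 1.42 in normoxia and 41.8 ± 1.70 in hypoxia (SD, n = 3 each). FZD6 made up 73.1% and 70.7% of it and FZD2 16.04% and 16.48%, so that the order of the leading pair was the same in both conditions. The order of FZD1 and FZD5 was reversed, from 2.41% to 4.77% for FZD1 and from 3.78% to 2.38% for FZD5. FZD7 went from 1.58% to 2.39%, about level with FZD5 under hypoxia.

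The co-receptors moved in opposite directions by small amounts. LRP5 had 8995, 7274 and 7918 counts in normoxia and 8754, 10677 and 9483 in hypoxia, going from 255 ± 13.0 to 289 ± 3.11 CPM (SD, n = 3 each). Its log2-fold change was 0.18 (SE 0.052, adjusted p = 0.00432, edgeR). LRP6 had 1833, 1296 and 1478 counts in normoxia and 1298, 1631 and 1240 in hypoxia, going from 48.2 ± 2.52 to 41.5 ± 2.94 CPM (SD, n = 3 each), with a log2-fold change of −0.21 (SE 0.069, adjusted p = 0.00894, edgeR). Neither overlapped in CPM, but both calls hung on single libraries. Without normoxia replicate 1, LRP5 had an adjusted p of 0.0572, and without hypoxia replicate 3, LRP6 had one of 0.0615 (edgeR). Over all alternatives the adjusted p ran up to 0.0572 for LRP5 and 0.175 for LRP6. The FPKM of LRP5 was 9.29 ± 0.627 times that of LRP6 in normoxia and 12.2 ± 1.03 times in hypoxia (SD, n = 3 each).

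The ligases that clear Frizzled from the surface also differed in direction. ZNRF3 had 766, 576 and 534 counts in normoxia and 231, 246 and 269 in hypoxia. It fell from 19.6 ± 1.35 to 7.49 ± 0.841 CPM (SD, n = 3 each), with a log2-fold change of −1.39 (SE 0.11, adjusted p = 3.14e-09, edgeR), and all hypoxia libraries lay well below all normoxia libraries. RNF43 had 36, 26 and 21 counts in normoxia and 58, 104 and 51 in hypoxia, going from 0.862 ± 0.135 to 2.09 ± 0.634 CPM (SD, n = 3 each). Its log2-fold change was 1.27 (SE 0.31, adjusted p = 0.00116, edgeR), the hypoxia libraries were all above the normoxia libraries, and hypoxia replicate 2 was the highest. In GENCODE v29, 57.6% of the RNF43 exon bases are shared with the read-through gene AC004687.2 on the same strand, which was not analysed here, so that its counts are uncertain. LGR4, a receptor for R-spondins, had 1982, 1485 and 1585 counts in normoxia and 1375, 1519 and 1455 in hypoxia, a log2-fold change of −0.28 (SE 0.062, adjusted p = 5.10e-04, edgeR). LGR6 had at most 1 count in any library.

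The Dickkopf antagonists exchanged their order. DKK1, which blocks LRP5 and LRP6 and whose promoter window is printed above, had 1292, 1044 and 1017 counts in normoxia and 199, 142 and 125 in hypoxia. It fell from 35.2 ± 1.13 to 4.73 ± 1.55 CPM (SD, n = 3 each), with a log2-fold change of −2.91 (SE 0.14, adjusted p = 7.31e-12, edgeR), which is 7.50-fold lower. This was the largest decrease among the 30 tested Wnt genes. Among the hypoxia libraries, replicate 1 was the highest at 6.52 CPM, and replicates 2 and 3 stood at 3.82 and 3.85. DKK3, a divergent member of the family that is not known to block LRP5 or LRP6 in the way DKK1 does, had 268, 172 and 218 counts in normoxia and 1001, 1057 and 860 in hypoxia. It rose from 6.86 ± 0.740 to 29.2 ± 3.22 CPM (SD, n = 3 each), with a log2-fold change of 2.09 (SE 0.11, adjusted p = 1.51e-11, edgeR). The ratio of DKK1 to DKK3 in FPKM was 9.82 ± 1.46 in normoxia and 0.302 ± 0.0653 in hypoxia (SD, n = 3 each). SFRP1, a secreted decoy for Wnt ligands, had at most 2 counts in any library, and its relative FRZB at most 1.

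Inside the cell, both scaffolds of the destruction complex and beta-catenin fell, where 38.5% of all genes tested were called lower. AXIN1, the scaffold that limits the complex, had 2576, 1866 and 1917 counts in normoxia and 1350, 1522 and 1278 in hypoxia, going from 66.4 ± 2.44 to 41.5 ± 2.47 CPM (SD, n = 3 each). Its log2-fold change was −0.68 (SE 0.063, adjusted p = 2.31e-08, edgeR). APC, a tumour suppressor of the same complex, had 1504, 1129 and 1303 counts in normoxia and 870, 1094 and 957 in hypoxia, going from 41.3 ± 2.42 to 29.1 ± 0.556 CPM (SD, n = 3 each), a log2-fold change of −0.50 (SE 0.068, adjusted p = 3.08e-06, edgeR). CTNNB1, which encodes beta-catenin, had the highest FPKM of the 42 genes, 114 ± 5.82 in normoxia and 97.6 ± 3.405 in hypoxia (SD, n = 3 each). It had 18042, 13787 and 15428 counts in normoxia and 13126, 14881 and 13147 in hypoxia, a log2-fold change of −0.27 (SE 0.053, adjusted p = 1.70e-04, edgeR). None of the 3 overlapped between the groups in CPM. Beta-catenin is regulated largely as a protein, which these libraries do not measure.

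Of 3 TCF/LEF factors tested, 2 rose and 1 was not called, which is 66.7% called beside 77.8% of all genes. TCF7 had 270, 193 and 223 counts in normoxia and 338, 414 and 306 in hypoxia, a log2-fold change of 0.55 (SE 0.12, adjusted p = 4.96e-04, edgeR). TCF7L1, often a repressor of Wnt targets, had 8, 13 and 16 against 29, 66 and 38 counts, a log2-fold change of 1.72 (SE 0.42, adjusted p = 0.00125, edgeR). TCF7L1 was low in both groups, at 0.403 and 1.30 CPM, and its hypoxia libraries were spread widely. It passed the filter only through those hypoxia libraries, so its call is a description only. TCF7L2 had the highest FPKM of the family, 4.25 in normoxia and 4.20 in hypoxia, with a log2-fold change of −0.063 (95% interval −0.24 to 0.12) and overlapping groups. LEF1 had at most 3 counts in any library. The plot of log2-fold changes sets the 30 genes side by side.

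**Figure D3:**
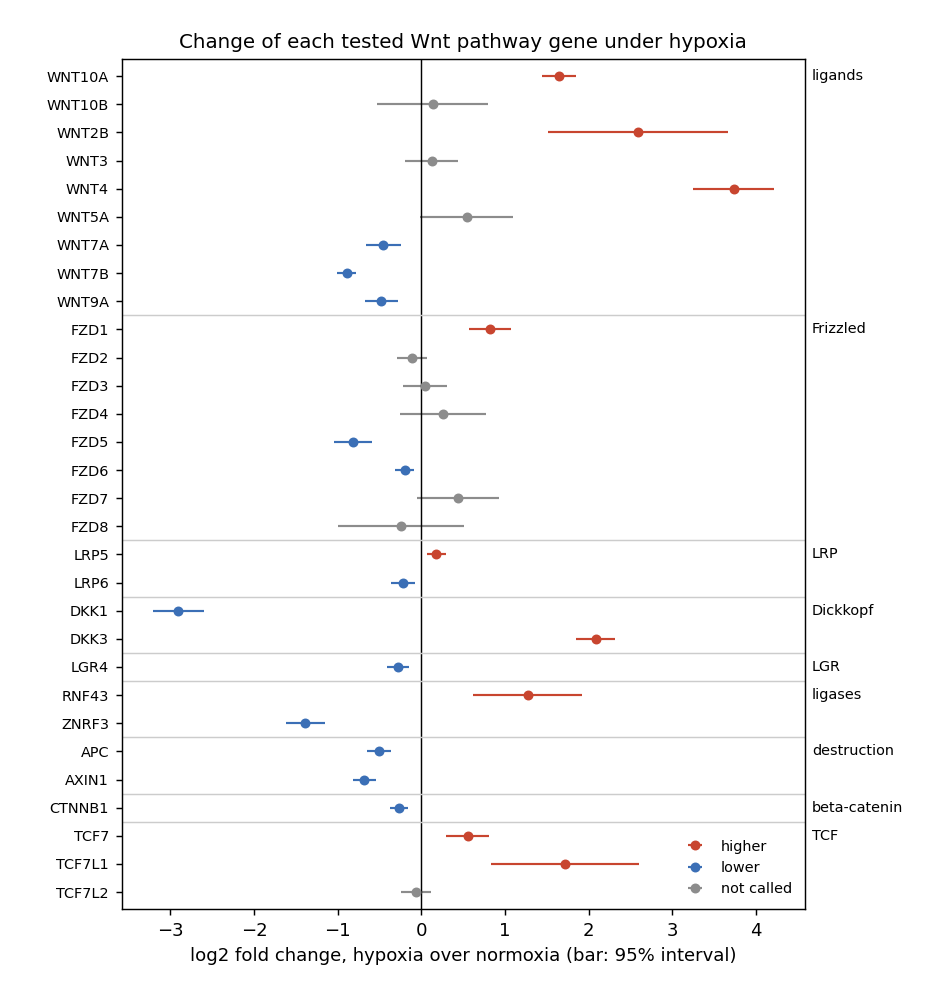
Log2-fold change, hypoxia over normoxia, of the 30 tested Wnt pathway genes with 95% intervals (bars), grouped by role and coloured red (called higher), blue (called lower) or grey (not called). WNT4 (3.73) and DKK1 (−2.91) are the extremes, and the roles with several genes called hold both directions except the destruction complex and the TCF factors.

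The rest of the pathway was described with 6 further lists of 81 genes, of which 72 were in the table and 56 were tested. Of these, 24 rose and 22 fell, 82.1% called beside 77.8% of all genes, with a median log2-fold change of −0.0014. The plot of the 6 lists gives each gene. For ligand secretion, 2 of 3 tested genes rose and none fell (66.7% called). PORCN, the acyltransferase that lipidates Wnt proteins, rose by 0.38 on the log2 scale (adjusted p = 7.92e-04, edgeR), and WLS, which carries them to the surface, was not called at 0.12 (adjusted p = 0.0751, edgeR). WLS was called higher in edgeR with at least 10 counts in every library (adjusted p = 0.00551) and in the 3 limma fits on FPKM (adjusted p = 0.00437 to 0.0104). Among the other modulators 3 of 3 tested rose (100% called), including KREMEN1 and KREMEN2, surface partners of Dickkopf proteins, with log2-fold changes of 1.13 (adjusted p = 1.01e-08, edgeR) and 1.28 (adjusted p = 2.42e-06, edgeR). KREMEN2 shares 13.8% of its exon bases with PKMYT1 on the opposite strand, which had a log2-fold change of −1.27. The remaining genes of these lists that rose, NOTUM, a secreted Wnt deacylase, and the R-spondin RSPO4, were low and are named after their values were seen, with log2-fold changes of 1.44 and 1.25. NOTUM and RSPO4 passed the filter only through their hypoxia libraries, so their calls are descriptions only, also within the shares above. NOTUM lost its call without hypoxia replicate 2 (adjusted p = 0.0583, edgeR, from 0.00367 under its alternatives) and RSPO4 without normoxia replicate 1 (adjusted p = 0.0831, edgeR, from 0.00577). RSPO1, RSPO2, RSPO3 and WIF1 were not analysed here.

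Among 10 tested Wnt-binding kinases and planar polarity genes, 6 rose, 3 fell and RYK was not called, with a median of 0.98. This is 90% called, beside 77.8% of all genes tested, of which 39.2% were higher and 38.5% lower. All 3 CELSR cadherins, which act in polarity between neighbouring cells, rose, with log2-fold changes of 1.25 for CELSR1, 1.29 for CELSR2 and 1.55 for CELSR3. The polarity gene VANGL2 rose by 1.84 on the log2 scale (adjusted p = 8.90e-12, edgeR), from 15.4 ± 2.37 to 55.3 ± 3.38 CPM (SD, n = 3 each), while its relative VANGL1 had a log2-fold change of −1.22 (adjusted p = 1.11e-09, edgeR). ROR1, a receptor kinase for WNT5A, went from 11.8 ± 1.48 to 3.54 ± 0.541 CPM (SD, n = 3 each), a log2-fold change of −1.74 (adjusted p = 9.83e-09, edgeR), and ROR2 had at most 5 counts. PRICKLE1 was the third gene that fell, at −1.22 (adjusted p = 7.07e-05, edgeR).

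Of 13 tested cytoplasmic components 5 rose and 5 fell, with a median of 0.024. The share called was 76.9%, beside 77.8% of all genes tested, of which 39.2% were higher and 38.5% lower. AMER1, which brings beta-catenin regulators to the membrane, had a log2-fold change of −1.60 (adjusted p = 3.07e-09, edgeR), and the tankyrase gene TNKS, whose product marks axin for degradation, one of 0.99 (adjusted p = 1.27e-09, edgeR). TNKS2 rose by 0.33 on the log2 scale. The kinase gene GSK3A had a log2-fold change of −0.75 (adjusted p = 5.75e-09, edgeR), and the Dishevelled genes DVL1 and DVL2 had −0.45 and 0.40. CSNK1E had 2 to 12 counts per library and was not tested. It shares 21.1% of its exon bases with the read-through gene TPTEP2-CSNK1E on the same strand, which went from 0.941 to 3.10 CPM, so that the counts listed for CSNK1E are uncertain as its level.

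Of 13 tested nuclear cofactors 3 rose and 6 fell, with a median of −0.16. The share called was 69.2%, beside 77.8% of all genes tested, of which 39.2% were higher and 38.5% lower. The Groucho-type co-repressor gene TLE2 had a log2-fold change of 2.04 (adjusted p = 1.71e-09, edgeR), and its relative TLE1 one of −0.77 (adjusted p = 6.78e-08, edgeR). TLE5 had 0.47, PYGO1 −0.44 (called by edgeR, but with an adjusted p of 0.0541 in limma on log2(FPKM + 1) without a filter, the highest of its alternatives), CBY1 −0.34 and TBL1XR1 0.25.

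Of 14 tested genes that are widely reported as induced by beta-catenin and TCF, 5 rose and 8 fell, with a median of −0.38. This is 92.9% called, beside 77.8% of all genes tested, of which 39.2% were higher and 38.5% lower. MYC went from 255.5 ± 5.12 to 34.9 ± 7.38 CPM (SD, n = 3 each), a log2-fold change of −2.88 (adjusted p = 1.30e-13, edgeR), and CCND1, which encodes cyclin D1, from 451 ± 49.96 to 97.1 ± 3.55 CPM (SD, n = 3 each), −2.22 on the log2 scale (adjusted p = 5.30e-14, edgeR). FOSL1 had a log2-fold change of −1.70 (adjusted p = 2.52e-12, edgeR). In the other direction, EPHB3 had 2.13 (adjusted p = 3.13e-10, edgeR), JUN 1.90 (adjusted p = 3.51e-12, edgeR) and SOX4 1.88 (adjusted p = 6.36e-13, edgeR). NKD1, a feedback inhibitor of the pathway named after its values were seen, had 5, 2 and 2 counts in normoxia and 20, 28 and 16 in hypoxia. Like WNT2B, TCF7L1, NOTUM and RSPO4, it passed the filter only through its hypoxia libraries, so its call is a description only. SP5 was not called, with a log2-fold change of −0.20. These genes have other inducers too, so their list is a description of reported targets and not a readout of the pathway.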

How the data were processed

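Gene-level values of 6 SCC25 libraries, 3 hypoxia and 3 normoxia, grouped by the sample labels, were analysed. The authors deposited counts, whole numbers per gene without normalization, and FPKM, which follow from the same counts, the gene length and the library total. The aligner, annotation, counter and strand setting are not given in the sources used here. The submitters' processing notes name mouse builds (GRCm38 and mm10) although the rows are human genes, so no coordinates are given for counts. The labels name SCC25, while a legend of the study names SCC9 for one plot of sequencing results.

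The test was that of edgeR 4.0.16, run in R 4.3.3 (quasi-likelihood F test, TMM, filterByExpr, condition as the only term), on the counts of 14255 genes, with Benjamini-Hochberg adjustment. The standard error is the size of the log2-fold change divided by the square root of F, and 95% intervals use the t quantile at the degrees of freedom of that test. Depth was 29637189 to 37278703 counts, and differences in genes with 3 or fewer counts per library were not measurable. Replicates differed by more than sampling noise (chi-square per gene 5.11 to 11.5). On simulated data for hypoxia against normoxia (14231 genes), edgeR found 86 of 87 genes changed by 1 and 113 of 113 changed by 2 on the log2 scale, with 10 false among 209 calls. Only these genes were changed, in both directions, each above a minimum mean count, and every gene had the same dispersion. In the data 77.8% of genes were called. The simulation thus does not give the error rate or power for these data, nor for genes with few counts.

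Every Wnt gene that passed the filter is named, with full values for those called with a log2-fold change of at least 1 at a mean of at least 1 CPM, and for CTNNB1, APC, AXIN1, LRP5 and LRP6. From each other list up to 6 called genes with the largest changes at that level are named, and VANGL1, NOTUM, RSPO4 and NKD1 were added after their values were seen. The members and lists were chosen with earlier results of these data known. Alternatives were DESeq2 1.42.0 (size factors or Wald test), no filter or 10 counts required per library, a block for the replicate number, fits without 1 library at a time, limma 3.58.1 on log2(FPKM + 1) or log2(FPKM + 0.1) where the mean FPKM was 1 or more, or on all genes, and a required log2-fold change of 1. Overlapping exons came from GENCODE v29 and promoter windows from RefSeq.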

Additional observations from a re-analysis of the deposited data

How the results depend on the processing

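No Wnt gene and no gene of the 6 further lists that was called reversed its direction under any alternative. Of 396 alternative values of the 30 Wnt genes, 6 lost a call, all of LRP5 or LRP6, and 6 gained one, of FZD2, FZD7 or WNT5A. Of 766 values of the other pathway genes, 18 lost a call (8 genes) and 8 gained one (WLS, DVL3, BTRC and CTNNBIP1). LRP6 was lost with at least 10 counts in every library (adjusted p = 0.0797, edgeR) and in all limma fits on FPKM (adjusted p = 0.107 to 0.175). With limma on log2(FPKM + 1) and on log2(FPKM + 0.1), 4 Wnt genes were higher in place of 9, since only 19 Wnt genes reached a mean of 1 FPKM. With a log2-fold change of at least 1 in size, 4338 genes were called in place of 11090, 2 Wnt genes were lower in place of 12, and of the other lists 15 were higher in place of 24 and 8 lower in place of 22.

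Leaving out each library in turn gave 10669 to 11390 genes called, 8 to 11 Wnt genes higher and 11 to 13 lower, and in the other lists 22 to 25 higher and 20 to 24 lower. With the replicate block, 10875 genes were called, 10 Wnt genes higher (FZD7 joined, adjusted p = 0.0464, edgeR) and 12 lower, and in the other lists 24 higher and 22 lower. Same-numbered libraries did not deviate together (correlations 0.018, −0.069 and 0.0012). This shows no sign that the numbers pair the samples, though so few libraries cannot exclude it. Without the filter on low counts, 11 Wnt genes were higher and 13 lower, namely the 21 called with the filter and WNT6, WNT11 and FZD9 of the 12 otherwise untested. The other 9 of those 12 were not called, and 6 of the 12 had at most 3 counts in every library.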
